A study of Homo sapiens with 4 samples.

Results

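Among the peaks of open chromatin in control SK-N-BE(2)C cells, 1634 were each overlapped, by at least 1 bp, by 2 or more separate peaks in cells with disrupted SNHG1. They were chosen from 47453 control peaks lying outside the region around MYCN on chromosome 2, from 15.9 to 16.45 Mb, of 47610 control peaks in all. The split peaks therefore made up 3.44% of the control peaks outside that region (95% Wilson interval 3.28 to 3.61). Of the others, 29970 were overlapped by exactly 1 sgSNHG1 peak and are called unsplit below, and 15849 by none. The sgSNHG1 peaks lying on a split control peak are called its pieces. The members were chosen from the peak borders of both lists, so that all widths, gaps, coverages and heights given here describe the choice itself and none of them was tested.

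SK-N-BE(2)C is a human neuroblastoma cell line with amplified MYCN, and SNHG1 codes for a long non-coding RNA and hosts small nucleolar RNAs in its introns. Control cells had received a non-targeting control gRNA and carried wildtype SNHG1, and sgSNHG1 cells had received an SNHG1 gRNA and are labelled as an SNHG1 knockout. Both were made by co-transfection of Cas9 and dual sgRNAs with a reporter, puromycin selection and sorting of single cells that were expanded as clones. A difference between the conditions therefore cannot be told apart from one between clones. According to the authors, SNHG1 was not knocked out completely, but its expression was repressed. To ask how open chromatin differs once SNHG1 is disrupted, accessibility was profiled by ATAC-seq in 4 samples, 2 replicates of each condition, and the authors pooled the replicates before peak calling. Each condition is thus 1 list without a measure of replicate error, and the conditions could not be compared by a test.

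In ATAC-seq, the Tn5 transposase cuts DNA that is free of nucleosomes, and the density of the cut fragments marks promoters, enhancers and insulators. At an active promoter the region just upstream of the gene start is usually the most open, and it is flanked by a well-placed first nucleosome inside the gene. A peak caller such as MACS2 calls every stretch in which the pileup of fragments stands above the local background, and joins neighbouring stretches that lie closer than a set distance. One broad peak becomes several when the pileup between its summits drops below the threshold over more than that distance.

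The labelled cell type was checked first. Of 12 sympathoadrenal marker genes, 10 had a peak within 3 kb of their start in both lists, among them HAND2, GATA3, ISL1 and DBH, whereas TH and L1CAM had none in either. None of 6 blood markers, 1 of 5 epithelial markers (EPCAM) and 5 of 6 mesenchymal markers had one. The promoter of SNHG1 itself was overlapped by exactly 1 sgSNHG1 peak and was not among the split peaks, and a peak at a promoter does not check the disruption of the gene. The control list was the deeper one at its summits, with a median pileup of 24 fragments over 47610 peaks against 20 over 42682 sgSNHG1 peaks. The narrowest peak was 119 bp in the control list and 92 bp in the sgSNHG1 list, and the smallest gap between neighbouring peaks was 120 and 93 bp, so the shortest gap left open differed between the lists.

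The sequences below show where some of the breaks lay, from GRCh38 on the + strand. The capitals mark the gap between adjacent pieces, that is the bases inside the control peak that no sgSNHG1 peak covered, and the lower-case letters belong to the pieces on either side. None of the stretches holds annotated exon sequence. The first 2 run from summit to summit, and come from RCOR1 at chr14:102592112-102592385 and FJX1 at chr11:35617978-35618183. Their whole inter-summit stretch is short and free of exons. The same holds for RPL23A, which is not shown. Its gap of 178 bp was 46.1% G and C against 66.7% in the piece sequence beside it. RCOR1 is a subunit of an HDAC1/2 corepressor complex, and FJX1 held, farther downstream, the widest gap of all split peaks.
RCOR1: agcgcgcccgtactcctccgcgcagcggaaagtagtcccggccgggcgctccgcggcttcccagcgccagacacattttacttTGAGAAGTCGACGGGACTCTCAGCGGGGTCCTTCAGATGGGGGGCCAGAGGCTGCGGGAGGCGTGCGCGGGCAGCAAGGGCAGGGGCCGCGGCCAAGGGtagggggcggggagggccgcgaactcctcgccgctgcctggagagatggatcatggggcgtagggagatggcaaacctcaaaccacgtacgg
FJX1: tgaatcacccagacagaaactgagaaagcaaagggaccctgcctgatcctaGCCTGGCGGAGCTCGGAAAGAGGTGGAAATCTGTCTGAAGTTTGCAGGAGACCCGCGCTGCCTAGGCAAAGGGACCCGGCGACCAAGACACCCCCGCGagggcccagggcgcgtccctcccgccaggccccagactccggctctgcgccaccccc

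In the stretch of RCOR1 the gap of 99 bp was 72.7% G and C against 66.3% in the piece sequence beside it. The FJX1 gap of 98 bp was close to its surroundings, with 64.3% against 65.7%. The next 4 stretches show gaps with 40 bases on either side at promoters of a cell cycle gene, a sympathoadrenal factor and the peak with the most pieces. They lay in CCNE1 at chr19:29811771-29811967, in SOX11 at chr2:5691557-5691749 and chr2:5691769-5691971, and in SDC1 at chr2:20223577-20223754.
CCNE1: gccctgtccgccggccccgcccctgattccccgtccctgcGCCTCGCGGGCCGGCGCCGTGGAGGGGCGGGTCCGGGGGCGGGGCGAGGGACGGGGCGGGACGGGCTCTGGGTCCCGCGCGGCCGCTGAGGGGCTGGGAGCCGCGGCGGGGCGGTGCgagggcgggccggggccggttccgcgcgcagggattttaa
SOX11, upstream gap: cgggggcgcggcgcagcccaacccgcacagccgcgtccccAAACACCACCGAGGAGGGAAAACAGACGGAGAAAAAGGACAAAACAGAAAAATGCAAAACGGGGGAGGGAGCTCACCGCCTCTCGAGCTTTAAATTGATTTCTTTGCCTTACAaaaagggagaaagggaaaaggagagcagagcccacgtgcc
SOX11, downstream gap: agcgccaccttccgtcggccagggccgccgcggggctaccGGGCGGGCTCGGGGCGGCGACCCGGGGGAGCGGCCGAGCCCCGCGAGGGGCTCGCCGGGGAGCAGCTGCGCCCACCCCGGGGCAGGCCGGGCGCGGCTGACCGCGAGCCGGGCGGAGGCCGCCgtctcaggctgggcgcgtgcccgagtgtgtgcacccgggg
SDC1: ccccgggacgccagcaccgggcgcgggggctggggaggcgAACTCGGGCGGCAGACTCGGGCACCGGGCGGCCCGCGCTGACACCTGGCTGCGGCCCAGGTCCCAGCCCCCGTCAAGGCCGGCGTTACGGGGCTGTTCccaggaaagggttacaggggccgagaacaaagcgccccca
The CCNE1 stretch held 6 matches to the GC box word GGGCGG on either strand, and its gap of 117 bp was 87.2% G and C. The 2 gaps of SOX11 differed from each other, with 46.02% in the upstream one of 113 bp and 87.8% in the downstream one of 123 bp. The SDC1 gap of 98 bp had 75.5% against 75% in the bases around it.

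The opposite event was much less common in these lists. With the lists exchanged, 94 of 42477 sgSNHG1 peaks were overlapped by 2 or more control peaks, which is 0.221% (0.181 to 0.271), and the ratio of the counts was 17.4. Counting only peaks with a −log10 q of at least 5 left 842 split peaks against 38 of the opposite kind, and a −log10 q of at least 10 left 190 against 3. When sgSNHG1 peaks narrower than 119 bp were left out and sgSNHG1 gaps below 120 bp were closed, so that both lists had the same smallest width and gap, 974 split peaks remained against 109, a ratio of 8.94. All of these 974 were among the 1634. The intervals given here and below cover counting error only, and the part of the lower sgSNHG1 pileup in the split was not tested.

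Of the split peaks, 1555 held 2 pieces, 78 held 3 and 1, at SDC1, held 4, giving 3348 pieces and 1714 pairs of adjacent pieces. No piece was shared between split peaks. The split control peaks were wide, with a median of 879.5 bp (quartiles 668.5 and 1125, range 203 to 2352) against 419 bp for unsplit control peaks and 206 bp for control peaks with no sgSNHG1 peak. The pieces had a median width of 238 bp (quartiles 152 and 382). Within a split peak the widest piece was 362 bp and the narrowest 161 bp in the median. Of all pieces, 12.4% were narrower than any control peak, which is close to the 13.7% among all sgSNHG1 peaks.

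The pieces covered a median of 62.0% of their control peak (quartiles 50.4 and 72.7, range 14.4 to 93.02). An unsplit control peak of 750 bp or more was covered to 74.4% by its single sgSNHG1 peak, against 63.3% for split peaks of that width. The gap between adjacent pieces was 166 bp in the median (quartiles 120 and 252, range 93 to 1087), and 421 of the 1714 gaps (24.6%) were shorter than the shortest gap in the control list. In 56.6% of the split peaks, 925 in all, at least 1 piece reached beyond the border of the control peak.

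How many peaks met the rule went with their width. Among control peaks overlapped by any sgSNHG1 peak, 5.17% were split in all (4.93 to 5.42). The share was 0.179% below 300 bp, 1.59% at 300 to under 500 bp, 5.08% at 500 to under 750 bp, 13.5% at 750 to under 1000 bp, 31.3% at 1000 to under 1500 bp and 62.6% (54.3 to 70.2) at 1500 bp or more. Every other property that goes along with a wide control peak is therefore also met more often among the split peaks. Promoter share, base composition and control fold enrichment were compared within classes of width. Some other properties were set beside unsplit peaks of 750 bp or more, and the remaining comparisons were not matched for width.

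**Figure D1:**
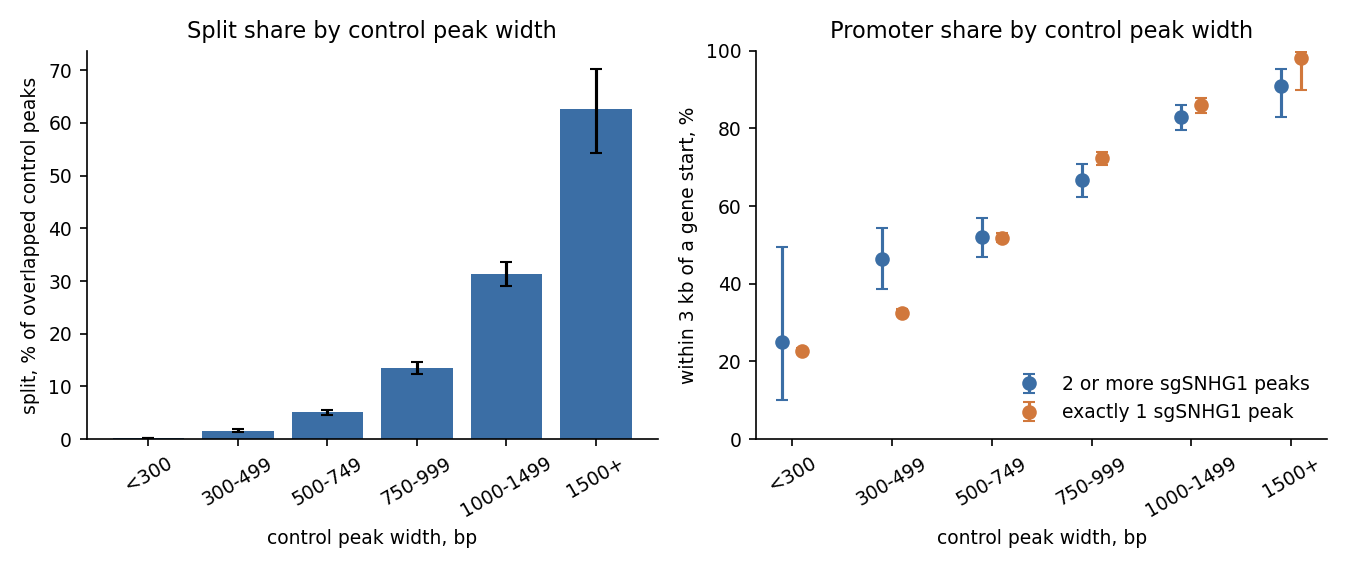
The left panel plots, for 6 classes of control peak width in bp, the percent of overlapped control peaks that were split, with bars from 0 and 95% Wilson intervals. The right panel plots the percent within 3 kb of a gene start for split and unsplit control peaks of the same classes. The split share climbs from 0.179% to 62.6%, and the promoter shares of the groups differ by 0.0243 points at 500 to under 750 bp and are lower for split peaks in the 3 wider classes.

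Of the split peaks, 1099 lay within 3 kb of a gene start, a share of 67.3% (64.9 to 69.5), against 40.5% of unsplit control peaks (39.9 to 41.0) and 22.7% of control peaks with no sgSNHG1 peak. The difference of 26.8 percentage points between split and unsplit peaks (95% Newcombe interval 24.4 to 29.1) was not seen at matched width. Unsplit control peaks weighted to the widths of the split ones had a promoter share of 68.9%. At 500 to under 750 bp the difference was 0.0243 percentage points (-5.05 to 5.07). It was -5.52 at 750 to under 1000 bp (-10.1 to -1.13), -3.01 at 1000 to under 1500 bp (-6.99 to 0.683), and -7.27 at 1500 bp or more (-15.3 to 2.06). With protein-coding genes alone it was -9.58 at 750 to under 1000 bp (-14.4 to -4.83). Only at 300 to under 500 bp were split peaks more often at promoters with an interval above 0, by 13.9 points (6.09 to 21.8), over 153 split peaks. Promoter shares are read from the gene annotation, which the choice of the peaks did not use.

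Away from promoters, 137 split peaks (8.38%) touched an exon, 234 (14.3%) lay in introns and 164 (10.0%) between genes. Among unsplit peaks of all widths the shares were 8.52%, 32.7% and 18.3%, and they were not matched for width. Of the 1099 promoter peaks, 882 (80.3%) had a protein-coding gene as the nearest start and 179 (16.3%) a long non-coding RNA gene. Split promoter peaks were wider than the 535 split peaks elsewhere, with medians of 965 bp (943 to 991) and 727 bp (705 to 767). Their summits stood farther apart, with 511 bp (497 to 524) against 417 bp (398 to 439), while the gaps were alike at 168 and 160 bp with overlapping intervals.

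The summits of adjacent pieces, each taken as the start of the peak plus the summit offset, stood 478 bp apart in the median (interval of the median 467 to 492, quartiles 348 and 627.75, range 135 to 1263). The spacings formed 1 broad hump. Of the 1714 pairs, 6.88% were 150 to 250 bp apart, 18.4% were 250 to 350 bp, 18.6% were 350 to 450 bp, 19.8% were 450 to 550 bp, 14.1% were 550 to 650 bp, 15.2% were 650 to 850 bp and 6.88% were wider. No separate peaks of the distribution stood out at these bin widths. Neighbouring sgSNHG1 summits that did not share a control peak and lay up to 1263 bp apart had a median spacing of 732.5 bp (n = 2124), and neighbouring control summits one of 736 bp (n = 2905). Both pieces had to touch the same control peak, so its width bears on their spacing by the choice itself. The part of that width in the shorter spacing was not tested. In the 94 sgSNHG1 peaks that held 2 or more control peaks the control summits stood 442 bp apart (388 to 486).

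**Figure D2:**
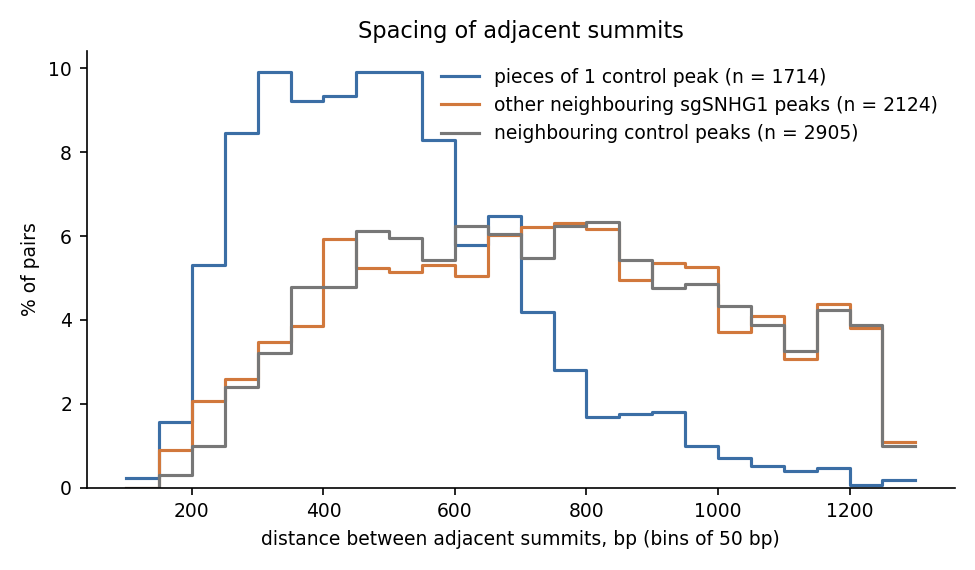
The x axis is the distance between adjacent summits in bp, in bins of 50 bp, and the y axis the percent of pairs in each of 3 sets. The pieces of 1 control peak (blue, n = 1714) have their highest bins around their median of 478 bp, and the neighbouring sgSNHG1 peaks (orange, n = 2124) and control peaks (grey, n = 2905) spread more evenly, with medians of 732.5 and 736 bp.

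The heights differed little between the conditions. The fold enrichment at a summit, the pileup over the local background of the same list, was 6.90 at the median split control peak (quartiles 5.77 and 8.33), 6.27 in its highest piece and 4.13 in its lowest. The median log2 ratio of the highest piece to the control peak was -0.10 (-0.12 to -0.08), against -0.09 for unsplit peaks of 750 bp or more and -0.04 for all unsplit peaks. With the mean of the pieces in place of the highest it was -0.37. A single ratio carried a counting error of 0.37 on the log2 scale in the median, from summit pileups of 39 fragments in control peaks and 27 in the highest pieces. In fold enrichment, the highest piece was lower by a log2 ratio of 1 or more at 3 of 1634 split peaks, against 0.414% of unsplit peaks. It was higher by as much at none, against 0.267%. The 3 lower ones were CXADR, a cell adhesion receptor gene, from 11.4 to 5.67, CLGN, a testis chaperone gene, from 11.8 to 5.88, and an intergenic peak 81081 bp from the lncRNA gene ENSG00000237947, from 8.36 to 4.09. CLGN lies on chromosome 4, where unsplit peaks had a median log2 ratio of -0.52 in scaled pileup, and its own was -1.43. Scaled pileup is the pileup divided by the lowest background of its list (2.20 in the control and 1.72 in the sgSNHG1 list). By this measure the ratios of split peaks ran from -1.88, at TUSC1, to 1.19, and a peak 775925 bp from EMB had -1.85. More than the 3 peaks named above were thus lower by 1 or more in scaled pileup.

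At equal width the split control peaks were the lower ones already in control cells. At 750 to under 1000 bp their median fold enrichment was 7.12 against 8.81 for unsplit control peaks, and at 1000 to under 1500 bp 7.51 against 8.63. The lowest piece of a split peak had a median −log10 q of 4.99 (quartiles 3.85 and 7.15, minimum 2.04), against 19.5 for the split control peaks. In 786 of the 1555 split peaks with 2 pieces (50.5%) the pieces were within 0.5 of each other on the log2 scale, and the median difference was 0.49. The control summit fell inside a piece in 89.0% of split peaks, in a gap in 8.75% and in an uncovered outer part in 2.26%. It lay 47 bp from the nearest piece summit in the median, against 41 bp in unsplit peaks, and the nearest piece was the highest in 78.9%. The control summit was also off centre, at 19.9% of the peak width from the middle against 12.6% in unsplit peaks of 750 bp or more.

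A protein-coding gene start lay inside 753 split peaks (46.1%). Of the 848 starts in them, 79.2% (76.4 to 81.8) fell in a piece, whereas pieces made up 64.0% of the base pairs of those peaks. Gaps held 14.3% of the starts (12.1 to 16.8) and 21.5% of the base pairs, and the uncovered outer parts 6.49% and 14.4%. The starts thus lay in the stretches that stayed in the sgSNHG1 list more often than their share of the length.

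In 628 split peaks with 2 pieces and gene starts on 1 strand, the upstream summit lay at -110 bp from the start in the median (-128 to -86) and the downstream summit at 407 bp inside the gene (367 to 447). The start lay between the summits in 59.1%, upstream of both in 27.1% and downstream of both in 13.9%. The piece nearer to the start was the higher one in 73.2% (69.7 to 76.6), with a median fold enrichment of 6.11 at 84.5 bp from the start against 4.41 at 506 bp for the farther piece. By direction, the upstream piece was the higher one in 62.9% (59.1 to 66.6). The taller part thus mostly lay next to the start. Of 918 split peaks with 2 pieces that held a start of a protein-coding transcript, 141 (15.4%) had such starts in both pieces. Starts of non-coding transcripts were not counted. Protein-coding starts on both strands lay in 4.83% of split peaks, and at 750 bp or more in 6.24% (4.94 to 7.85) against 7.58% (6.82 to 8.42) of unsplit peaks.

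**Figure D3:**
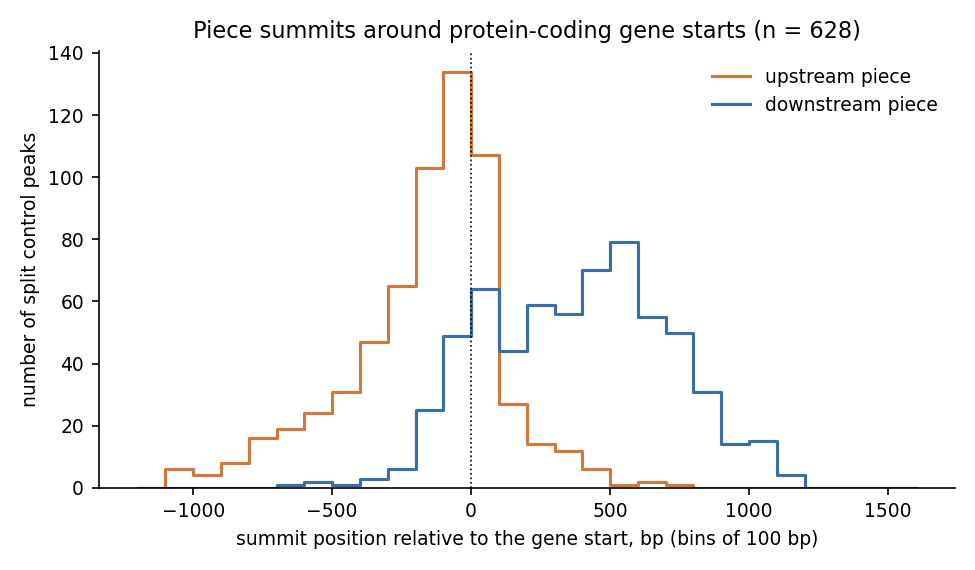
The x axis is the position of a piece summit relative to the protein-coding gene start in bp, positive into the gene, in bins of 100 bp, and the y axis the number of split control peaks with 2 pieces (n = 628). The upstream summits (orange) gather just before the start, with a median of -110 bp, and the downstream summits (blue) spread over the first kilobase of the gene, with a median of 407 bp.

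The sequence under the gaps differed from that under the summits. Split control peaks were rich in G and C, with a median of 65.3% against 56.4% in unsplit peaks, but at 750 to under 1000 bp the values were 65.4% and 65.1%. At promoters the gaps were richer than the pieces of the same peak, with 70.8% against 68.3% and a median difference of 2.17 points (1.64 to 2.75), and elsewhere they were poorer, with 50.9% against 53.1% and a difference of -1.53 (-2.27 to -0.893). Both ends of the range were more frequent in the gaps. Of windows of 93 bp centred on the gaps, 14.9% (13.3 to 16.6) were 80% G and C or more, against 5.02% (4.04 to 6.22) at the summit of the higher piece, and 11.0% were below 40%, against 4.95%. Windows at the middle of unsplit control peaks of 750 bp or more came to 11.0% and 4.57%, so the G and C rich end was also frequent there. The summit of those peaks lay 12.6% of the width from the middle in the median, so some of these windows may adjoin or overlap it. The part of base composition in the split was not tested.

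Sequence words of promoter factors were searched in the same windows of 93 bp, on both strands. Each word was searched on its own, so that matches of different words may overlap. Summits came from the 1555 split peaks with 2 pieces and gaps from all 1714 pairs. The intervals of the differences treat gaps and summits as separate sets, although most lay in the same peaks. In unsplit peaks only summits were searched, so a lower share away from summits was not compared there. The CCAAT box CCAAT, bound by NF-Y, was found at 16.9% of higher summits (15.1 to 18.9), 9.13% of lower summits and 6.42% of gap centres, a difference of -10.5 points between gaps and higher summits (-12.7 to -8.31). At the summits of unsplit sgSNHG1 peaks under control peaks of 750 bp or more it was found at 19.9%. The ETS core CCGGAA was found at 7.33% of higher summits, 5.21% of lower summits and 3.50% of gaps. The YY1 core AAGATGGC had 1.54%, 1.03% and 0.175%, and the AP-1 word TGANTCA 2.77%, 2.19% and 0.817%, both with intervals of the difference between gap and higher summit below 0. The general E-box CANNTG was found at 33.9% and 33.0% of higher and lower summits and at 24.8% of gaps.

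The GC box GGGCGG, the word of SP and KLF factors, went the other way, with 31.0% (28.8 to 33.2) of gap centres against 26.6% of higher summits, a difference of 4.42 points (1.31 to 7.51). The CTCF core word AGGGGGC was found at 6.30% of gaps and 5.98% of higher summits, with a difference of 0.320 (-1.35 to 1.97). For the word AGATAA, bound by GATA factors, the difference was -0.584 (-1.77 to 0.564). For the TATA box TATAAA it was 0.352 (-0.647 to 1.34). The NRF1 and paired homeodomain words had few matches, at 7 and 5 of 1555 higher summits and 2 and 1 of 1714 gaps. The CRE word TGACGTCA was found at 0.900% of higher summits, 0.129% of lower summits and 0.350% of gaps. At the summits of unsplit sgSNHG1 peaks under control peaks of 750 bp or more, GGGCGG was found at 33.2% (31.8 to 34.6), above the higher summits of split peaks and not below their gaps, CANNTG at 26.8%, TGANTCA at 1.73%, CCGGAA at 9.36% and AAGATGGC at 0.853%. Over all 29795 unsplit sgSNHG1 summits, which are more often distal, CCAAT was found at 15.8%, GGGCGG at 16.4%, CANNTG at 43.1% and TGANTCA at 4.01%. A match is a description of the letters and not a bound site.

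**Figure D4:**
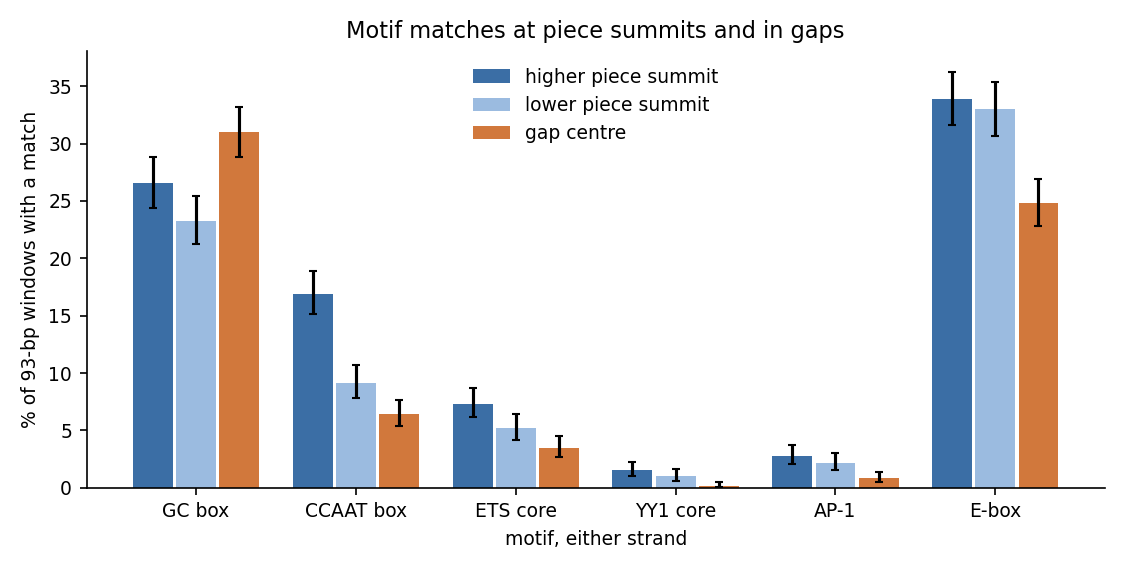
For 6 motifs on the x axis, the y axis gives the percent of windows of 93 bp with a match on either strand at the summit of the higher piece (dark blue, n = 1555), of the lower piece (light blue, n = 1555) and at the centre of the gap (orange, n = 1714), with bars from 0 and 95% Wilson intervals. The CCAAT box drops from 16.9% to 6.42% between higher summits and gaps, and the GC box is the one motif of the 6 with its tallest bar in the gaps, at 31.0%.

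The genes at split promoters were then read against lists. Of 12577 protein-coding genes with a control peak within 3 kb of their start, 1103 had a split one, a share of 8.77% (8.29 to 9.28), and each list count is read beside that share. Of 4 core regulatory circuitry factors with such a peak outside the left-out region, 1 had a split peak, TBX2. Of 16 adrenergic factors, which set the sympathoadrenal state of neuroblastoma, 2 had one (SOX11 and TBX2). Of 17 mesenchymal factors none had one, with a Wilson interval that reached up to 18.4%. The HDAC1/2 corepressor list had 2 of 20 (RCOR1 and RBBP7), the nucleosome remodellers 4 of 27, the cell cycle list 2 of 28 (CCNE1 and PLK4) and the housekeeping list 2 of 12 (HPRT1 and PPIA). None of 21 small nucleolar RNA host genes had one, with a Wilson interval that reached up to 15.5%. The intervals of these lists all included the background share.

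The last of the 9 lists had a lower share. Of 73 cytosolic ribosomal protein genes with a control peak, only RPL23A had a split one, which is 1.37% (0.242 to 7.36), an interval that ends below the 8.77% of all protein-coding genes. Their widest control peak had a median of 530 bp against 625 bp over all protein-coding genes, and the part of that narrower width was not tested. The RPL23A peak was 491 bp wide with a fold enrichment of 7.61, and its 2 pieces of 183 and 136 bp had 5.06 and 3.64.

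Among the factors of the sympathoadrenal state, the peak at SOX11, a SOX factor of neural progenitors, was 1169 bp wide and had a fold enrichment of 5.83 in control cells. Its 3 pieces of 205, 99 and 610 bp had 3.45, 2.58 and 6.89, so that the piece over the start stood above the control value and the 2 upstream ones below it. TBX2, a T-box factor, had a narrow control peak of 456 bp at 4.33, with pieces of 123 and 103 bp at 3.82 and 3.56 on either side of a gap of 98 bp. RCOR1 (CoREST) had 7.20 in control cells and pieces of 103 bp at 3.73 and 420 bp at 6.06. RBBP7, a histone-binding protein of the same HDAC1/2 corepressor list, had 7.20 and pieces of 471 bp at 5.31 and 269 bp at 8.30. The log2 ratio of the highest piece to the control peak was within its counting error at TBX2 (-0.18, error 0.35), RCOR1 (-0.25, error 0.34) and RBBP7 (0.20, error 0.39), and at SOX11 it was 0.24 with an error of 0.23.

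The 4 nucleosome remodeller genes with a split promoter peak were SMARCC2, a BAF subunit, CHD1, SRCAP and BAZ1A, the last through a peak whose nearest start is that of BAZ1A-AS1. CHD1 had a control peak of 1768 bp at 7.13 and pieces of 1105 bp at 6.26 and 464 bp at 4.02. SRCAP, which exchanges canonical histone for a variant, had 8.51 in control cells and 6.72 and 4.15 in its pieces. SMARCC2 had 6.88 and then 6.30 and 3.28. The BAZ1A-AS1 peak had 4.82, with pieces at 4.64 and 3.25 that were 484 bp apart, and its control summit lay in that gap.

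CCNE1, the cyclin of the entry into S phase, had 6.79 over 710 bp in control cells, and its control summit also fell in the gap, 122 bp from the nearest piece summit. Its pieces had 4.34 over 167 bp and 5.81 over 223 bp. PLK4, the kinase of centriole duplication, had 9.16 in control cells and 9.62 and 6.49 in its pieces, while the scaled pileup of its highest piece, on chromosome 4, had a log2 ratio of -0.67 to the control peak. Of the housekeeping genes, HPRT1 had 7.92 and then 3.42 and 7.08, with a log2 ratio of scaled pileup of 0.57 in a part of chromosome X where unsplit peaks had 0.67, and PPIA 8.79 over 1518 bp and then 8.60, 3.76 and 4.93 in its 3 pieces. In both, 1 piece stood near the height of the control peak and the others were lower.

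**Figure D5:**
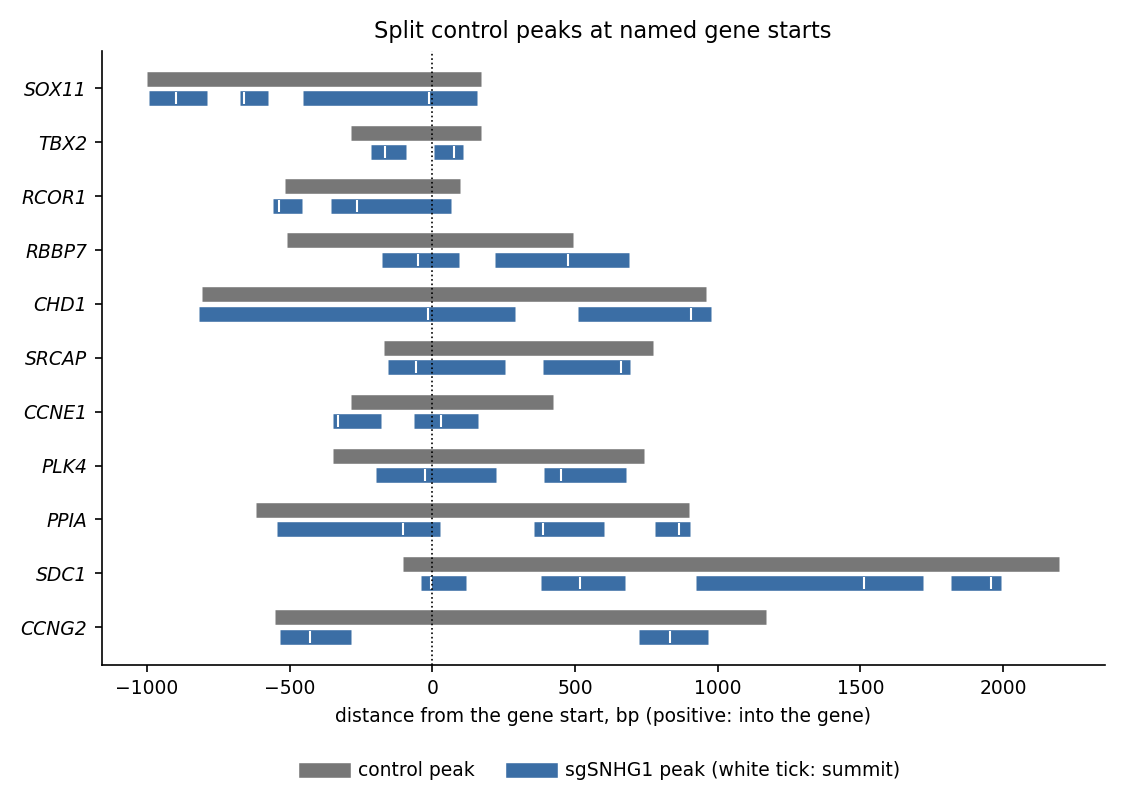
Each row is a split control peak (grey) with its sgSNHG1 pieces (blue, summits as white ticks), drawn to scale against the distance from the gene start in bp, positive into the gene. Most rows have a piece at or next to the start and a further piece inside or before the gene, while the start of CCNG2 lies in its gap of 1010 bp.

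The highest number of pieces was found at SDC1, the syndecan-1 gene, with a control peak of 2299 bp, a fold enrichment of 4.95 and 4 pieces of 175, 795, 295 and 158 bp, which had 3.92, 3.92, 3.65 and 3.81. The 79 split peaks with 3 or 4 pieces had a median control width of 1289 bp (1223 to 1386) against 864 bp (840 to 884) for those with 2. Of the 78 with 3 pieces, the 9 widest were taken, so that their widths, from 1781 bp at LINC01004 to 2151 bp at the lncRNA gene ENSG00000254718, were set by that choice. They included EPC2 and CBX3, which code for chromatin proteins, the glypican gene GPC6, and ZFP91 and KCMF1, which code for ubiquitin ligases. At ZMYND11 the peak lay over an exon 4478 bp from the start, and its 3 pieces of 218, 232 and 127 bp covered 29.7% of it. At EPC2 the middle piece was the highest at 7.87, above the 6.76 of the control peak, and at KCMF1 the 3 pieces had nearly the same height, at 4.57, 4.79 and 4.29.

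The tallest split peaks at protein-coding promoters mostly kept 1 tall piece beside a low one. SRGAP2 had 18.5 in control cells and pieces of 470 bp at 24.8 and 331 bp at 4.87. RBM48 had 17.0 and then 14.2 over 770 bp and 3.58 over 132 bp, COQ10B 14.9 and then 15.4 over 640 bp and 3.27 over 92 bp, and HSD17B7, a sterol synthesis gene, 18.1 and then 16.4 and 5.37. KANSL1, ERCC8 and UBN2 had the same form, with 11.4 and 4.41, 11.4 and 5.03, and 10.1 and 3.96. TUSC1 and NOTCH2NLC did not. NOTCH2NLC had 14.4 in control cells and a nearly even pair at 7.36 and 8.83. TUSC1 had 13.3 and then 6.27 and 7.23, with pileups of 104 fragments in the control peak and 22 in the highest piece. TUSC1 lies on chromosome 9, where unsplit peaks had a median log2 ratio of -0.01 in scaled pileup, and its own was -1.88. Unsplit peaks of its part of that chromosome were not read separately. SRGAP2, NOTCH2NLC and TAF11L5 (15.6 and then 7.36 and 18.8) have near-identical copies elsewhere in the genome, and the authors removed reads that mapped to several places, so their heights are uncertain.

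The widest gaps left only the ends of the control peak covered. At FJX1 the 3 pieces of 161, 108 and 172 bp covered 14.4% of a low control peak of 1384 bp (3.82), 1 gap spanned 1087 bp, and the control summit lay in it, 379 bp from the nearest piece summit. CCNG2, the cyclin G2 gene, had a tall control peak of 1722 bp at 9.44, and pieces of 247 bp at 9.35 and 241 bp at 6.76 with 1010 bp between them. It also lies on chromosome 4, and the pileup of its highest piece had a log2 ratio of -0.99 to the control peak. TUBA1B, a tubulin gene, had 6.91 and then 5.58 and 4.63 around a gap of 837 bp. At the peak of the microRNA gene MIR3917 the gap was 811 bp, and at RAB1B, a gene of vesicle transport, 730 bp.

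The tallest split peaks away from gene starts lay near pseudogenes or in repeated sequence. The tallest, 4314 bp from the processed pseudogene ENSG00000279081, had 31.6 in control cells and then 30.5 over 542 bp and 10.3 over 97 bp. A peak 775925 bp from EMB, its nearest gene, had a control pileup of 689 fragments and 20.1, and then 2.53 and 13.1. Next came a peak near the pseudogene REXO1L2P, with 19.9 and then 5.70 and 19.7. A pair of peaks 111133 and 102676 bp from the pseudogene ENSG00000276118 followed, the first with 17.99 and then 13.5 and 17.6 and the second with 13.7 and then 9.16 and 3.43. The gaps of 2 of these peaks are shown with 40 bases on either side for the kind of sequence these breaks lay in, at chr5:49666459-49666638 and chr1:143231542-143231822.
EMB: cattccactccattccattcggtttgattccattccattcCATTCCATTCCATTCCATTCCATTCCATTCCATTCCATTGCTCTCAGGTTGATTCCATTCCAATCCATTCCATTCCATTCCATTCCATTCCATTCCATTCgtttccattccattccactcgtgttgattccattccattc
ENSG00000276118: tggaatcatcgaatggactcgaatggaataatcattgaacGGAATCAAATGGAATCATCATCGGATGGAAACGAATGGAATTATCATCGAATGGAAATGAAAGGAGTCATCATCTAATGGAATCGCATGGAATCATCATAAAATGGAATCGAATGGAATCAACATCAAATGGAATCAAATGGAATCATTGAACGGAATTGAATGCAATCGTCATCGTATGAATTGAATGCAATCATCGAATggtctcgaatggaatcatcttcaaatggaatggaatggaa
The EMB stretch held 24 copies of the word ATTCC and the ENSG00000276118 stretch 15, on either strand. Heights in such sequence are uncertain, since reads from its many copies cannot be placed with certainty.

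The split peaks were spread over all autosomes and X. By chromosome, the share of control peaks that were split ran from 2.10% on chromosome 19 to 6.12% (4.73 to 7.88) on chromosome X, where 55 of 899 were split. When each chromosome was given the split rate of the whole set for its own peak widths, X had 55 split peaks against 34.8 and a ratio of 1.58, followed by chromosome 17 with 71 against 54.2 and 1.31. Chromosome 19 came to 1.03 and chromosome 4, where the sgSNHG1 pileup was lower, to 1.00. On X the last window, 120 to 160 Mb, had a higher sgSNHG1 pileup by 0.67 on the log2 scale and 11 split peaks against 8.82. The windows before it had 11 against 7.22 from 0 to 40 Mb, 20 against 12.1 from 40 to 80 Mb and 13 against 6.71 from 80 to 120 Mb, with pileup ratios of -0.11, -0.08 and -0.06. The part of these pileup differences in the split was not tested.

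The limit of the rule lay at 1 bp of overlap. The closest calls inside were ETV6, RNU6-809P and RNU7-26P, where 1 sgSNHG1 peak reached into the control peak by 1 bp, with control fold enrichments of 5.14, 6.87 and 9.91. The closest outside were GPSM3, LAYN, RN7SL66P and SEMA6D, where a neighbouring sgSNHG1 peak ended at the border with 0 bp between them, with 8.04, 10.4, 5.33 and 6.32. Requiring at least 50% of each piece to lie inside the control peak left 1391 split peaks.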

How the data were processed

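SK-N-BE(2)C cells were profiled by ATAC-seq in 4 samples. According to the methods and the labels, the authors trimmed reads (cutadapt), aligned them to GRCh38 (BWA), removed duplicate, multiply mapped, mitochondrial and blacklisted reads (GATK, Picard), shifted read ends (deepTools), combined the 2 replicates of each condition and called peaks with MACS2. Versions and thresholds are not given in the sources used here. The deposited values are a peak score, the fold enrichment as a ratio, −log10 p and q, and a summit offset in bp, and total depth is unknown.

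Fragment pileups at summits were recovered from fold enrichment and −log10 p, within 0.001, for 47609 of 47610 control and all 42682 sgSNHG1 peaks. Gene starts came from GENCODE 44 (GRCh38) and sequences from the same build. Intervals are 95% Wilson, Newcombe or order-statistic intervals (Python 3.11.15, pandas 2.3.3, scipy 1.17.1, statsmodels 0.14.6). Scripts were tested on simulated data. The 157 control peaks in the MYCN region, 14 of them split, were left out. Named genes were the 10 split peaks with the most pieces, the 10 highest at coding promoters, all in 9 gene lists, the 5 with the largest gap and the 5 highest distal ones, and CXADR, CLGN and ENSG00000237947 were added after their values were seen. Some items the rule named are not reported here. Members and lists were chosen with earlier results of these data known. Alternatives changed the q limit, overlap, joining of gaps, promoter definition and height measure.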

Additional observations from a re-analysis of the deposited data

How the results depend on the processing

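Of 26 alternatives, 11 moved a value by less than its interval or a count by less than 1.5 times, and 15 moved it. Only the log2 height ratio could turn its direction, and it did not. The counts, shares and spacings cannot be negative, so that no change of direction was possible for them. The split count of 1634 came to 842 and 190 with a limit on −log10 q of 5 and of 10, and to 974 with narrow sgSNHG1 peaks left out and gaps joined. The opposite count of 94 came to 38, 3 and, with 50% of a piece inside, 37. Its values with gaps joined, 112 and 109, were chosen after seeing the data. The promoter share of 67.3% came to 63.8% within 1 kb, 57.5% for protein-coding genes alone, and 72.0% and 73.7% at the q limits. The median spacing of 478 bp came to 527 and 596.5 bp at the q limits and 518 bp with gaps joined, the covered share of 62.0% to 65.2% at the lower limit, and the log2 height ratio of -0.10 to -0.37 with the mean of the pieces. Higher limits keep fewer peaks by construction, and other causes were not tested. No paired analysis was possible because the authors pooled the replicates, and leaving out a replicate was not possible for the same reason. Low pileups limit single ratios, with a counting error of 0.37 on the log2 scale in the median.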
